A study of Mus musculus with 6 samples.

Results

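Triglyceride synthesis and lipid droplet genes were examined in mouse liver with and without a deficiency of Pcyt2, the enzyme that makes CDP-ethanolamine for phosphatidylethanolamine synthesis. The 10 genes were Gpam, Agpat2, Lpin1, Lpin2, Dgat1, Dgat2, Mogat1, Plin2, Plin5 and Cidec, chosen by gene symbol among the probe sets that carry a single symbol. All 10 were measured, each by 1 probe set, out of 18820 genes on the array. The livers came from 4 mice of genotype Pcyt2+/-, numbered 1 to 4, and 2 wild type mice, numbered 3 and 4, all aged 2 months and of C57BL6 background, with 1 array for each mouse. Mice named Pcyt2+/- here by their genotype label carry the word knock-out in their titles. Sex, feeding state and the making of the Pcyt2 allele are not described in the labels.

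The liver builds triglyceride by adding acyl chains to glycerol-3-phosphate in turn, removing the phosphate to give diacylglycerol, and adding a last acyl chain. Diacylglycerol is a branch point, because the same molecule accepts phosphoethanolamine from CDP-ethanolamine, the product of Pcyt2, to form phosphatidylethanolamine. Finished triglyceride is stored in droplets whose surface carries perilipins and CIDE proteins, which control lipase access and droplet growth.

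The values were log2 expression after the authors' RMA, and the number of arrays limits their precision. Signals crowded into a narrow low band: the mean of 94.4% of probe sets fell between 4 and 5 and that of 5.55% exceeded 5, with a median of 4.40 on each array. Of the 10 genes 7 had a mean at or below 5, where a log2 difference understates a change if part of the signal is background. Pcyt2 itself averaged 4.64 ± 0.028 in Pcyt2+/- livers (SD, n = 4) and 4.84 ± 0.064 in wild type livers (SD, n = 2). The difference of -0.20 missed the threshold over all genes (limma adjusted p = 0.264). All 4 Pcyt2+/- arrays lay below both wild type arrays for Pcyt2, as they did for 7.17% of all genes. With each array's median subtracted on the linear scale the Pcyt2 difference was -0.97 (limma adjusted p = 0.0671). That setting takes the whole median as background, which was not tested, and it enlarges differences of genes near the median. All 8 hepatocyte markers were bright, with means from 7.44 (Hnf4a) to 12.29 (Alb). Their summed linear signal ran from 15375.5 to 16242.9 in Pcyt2+/- livers and from 15203.1 to 17121.8 in wild type livers. Of 39 measured markers of the other cell types, only 1, in the list for stellate cells and fibroblasts, had a mean above 5 (5.08). In bulk liver, fewer cells of a type and less RNA per cell cannot be told apart.

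None of the 10 genes passed the test of Pcyt2+/- against wild type livers. Limma called 0 of 10 at an adjusted p under 0.05 over all genes, with adjusted p from 0.662 to 0.996. The same fit called 0 of 18820 genes, or 0%, and 9 genes without wild type replicate 3, 2 without Pcyt2+/- replicate 2, and 1 each without Pcyt2+/- replicates 1 and 3. At an unadjusted p under 0.05, 2 of the 10 were lower (Lpin2 and Dgat2) and 0 were higher, against 3.44% of all genes lower and 1.86% higher. Lower calls were more common at higher levels: of the 792 genes with a mean above 5, 116 were lower and 44 higher. Among the 10 genes, 1 of the 3 above 5 was lower. These counts over the 10 genes moved when either wild type array was left out, in fits that leave 1 wild type array. They also moved in other settings. Without Pcyt2+/- replicate 3 there were 2 lower and 1 higher (Agpat2). Without moderation 1 was lower, and with a block for the replicate number 3 were lower. The background split over all genes, 648 lower and 350 higher, became 540 and 452 after quantile normalization. The means of 7 of the 10 genes were lower in Pcyt2+/- livers, against 51.9% of all genes, and the median difference was -0.023, against -0.00073 over all genes. That median was -0.042 without wild type replicate 3 and -0.0093 when replicate 4 of that group was left out. Values of the 4 Pcyt2+/- arrays lay below both wild type arrays for 2 of the 10 genes, Lpin2 and Dgat2, and above them for 0, where all genes gave 7.17% and 5.67%. Among the 792 genes with a mean above 5 the lower share was 15.3%, and 62.4% of them had a lower mean, so Dgat2 was one of 121 such genes. These counts over 10 genes are a description, with no test of the list.

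**Figure D1:**
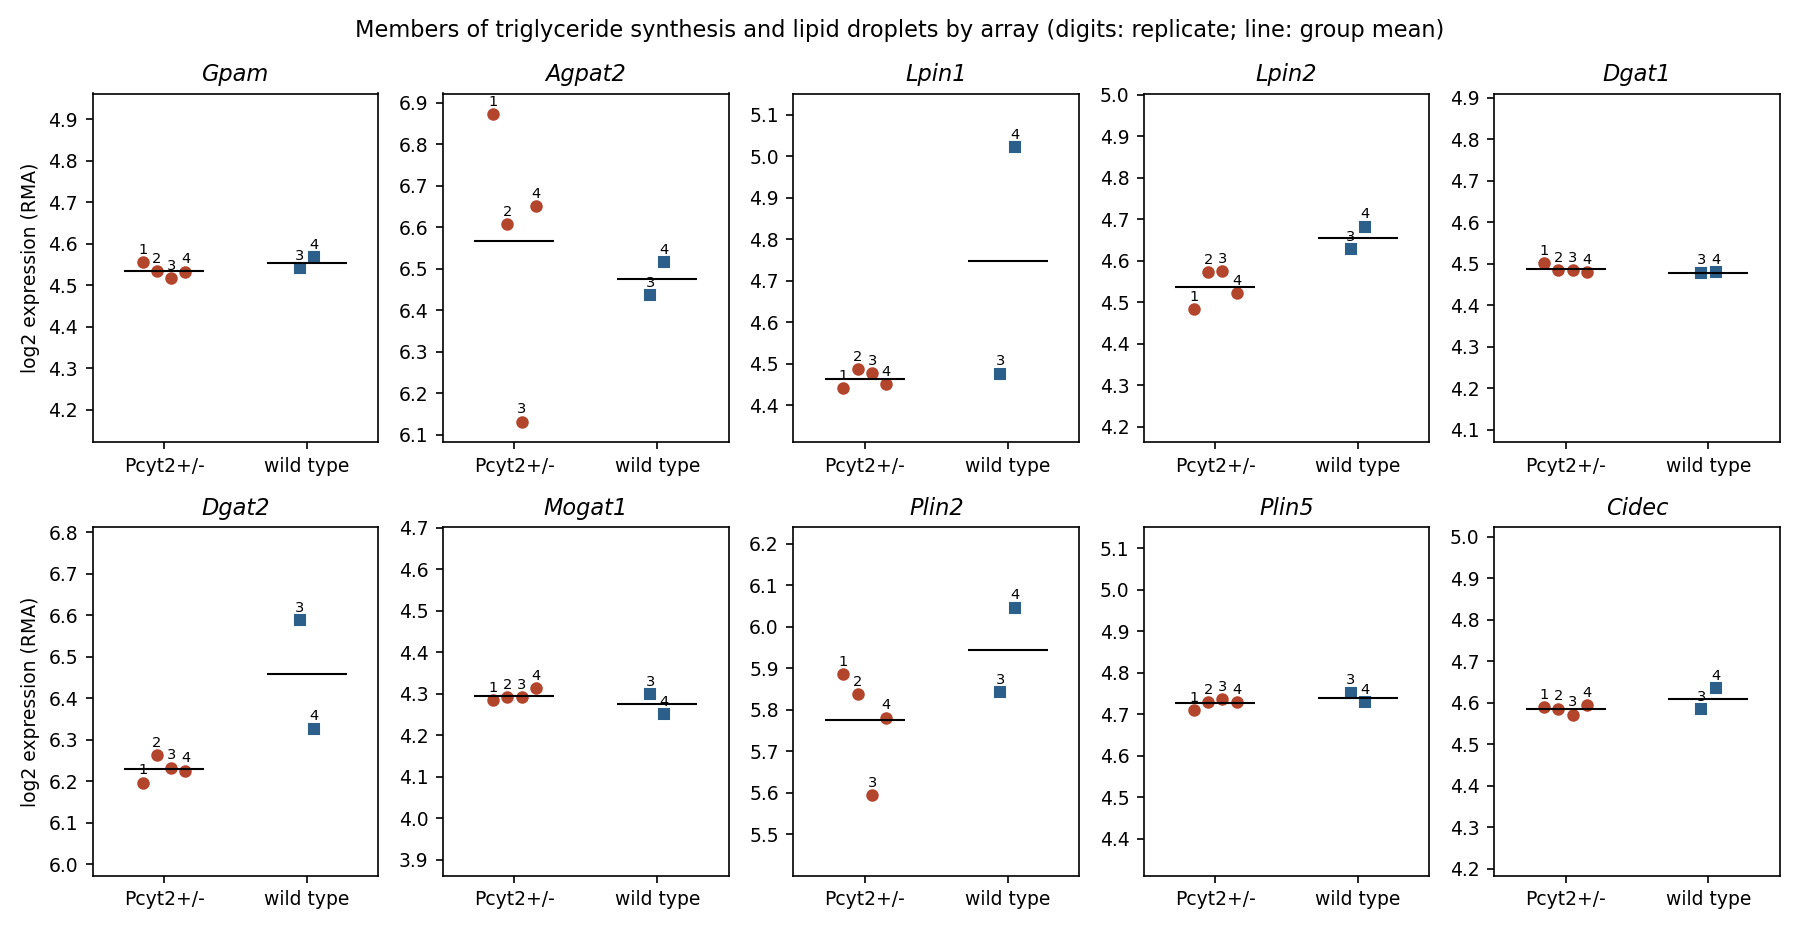
Log2 expression of the 10 genes on each array, with Pcyt2+/- arrays (red circles, n = 4) left of wild type arrays (blue squares, n = 2), digits giving the replicate and lines the group means; every panel spans the same log2 height. The groups separate for Lpin2 and Dgat2, wild type replicate 4 stands alone for Lpin1, and Agpat2 spreads over 0.742 within Pcyt2+/-.

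The acylation steps that open the pathway were represented by Gpam, the mitochondrial glycerol-3-phosphate acyltransferase, and Agpat2, which adds the second chain to make phosphatidic acid. Gpam had log2 values of 4.556, 4.534, 4.517 and 4.533 in Pcyt2+/- replicates 1 to 4, against 4.542 and 4.568 in wild type replicates 3 and 4. The groups overlapped, with Pcyt2+/- replicate 1 between both wild type arrays. The difference was -0.020 with a 95% interval of -0.054 to 0.014 (limma adjusted p = 0.956), at a mean of 4.54 in the low band. It ran from -0.033 without wild type replicate 3 to -0.0071 without wild type replicate 4.

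Agpat2 was well above the low band and varied most within the Pcyt2+/- group. It reached 6.873, 6.608, 6.131 and 6.651 in Pcyt2+/- replicates 1 to 4, against 6.436 and 6.516 in wild type replicates 3 and 4. Replicate 3 was the lowest of all arrays and the other 3 Pcyt2+/- arrays lay above both wild type arrays. The group means were 6.57 ± 0.31 in Pcyt2+/- livers (SD, n = 4) and 6.48 ± 0.057 in wild type livers (SD, n = 2), and the difference of 0.090 had a 95% interval of -0.34 to 0.52 (limma adjusted p = 0.996). The difference was 0.235 without Pcyt2+/- replicate 3 and turned to -0.012 without Pcyt2+/- replicate 1. Among the 792 genes with a mean above 5, the SD of Agpat2 over the 4 Pcyt2+/- arrays ranked 25.

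Lipins remove the phosphate from phosphatidic acid to give diacylglycerol, and lipin 1 also acts in the nucleus as a coactivator with PPARA and PGC-1alpha. Both lipin genes differed from each other in how their values fell on the arrays. Their promoter windows are shown because their groups lay apart or rested on a single array, with 250 bases before and 50 after the RefSeq start on assembly GRCm38.p6, 5′ to 3′ on the gene's strand. Capitals mark AGGTCA, the half-site of nuclear receptors, and CACGTG, the palindromic E-box, on either strand. The Lpin1 window is chr12:16610917-16611216 (minus strand), and the Lpin2 window, the first of 3 listed, is chr17:71183282-71183581 (plus strand).
Lpin1: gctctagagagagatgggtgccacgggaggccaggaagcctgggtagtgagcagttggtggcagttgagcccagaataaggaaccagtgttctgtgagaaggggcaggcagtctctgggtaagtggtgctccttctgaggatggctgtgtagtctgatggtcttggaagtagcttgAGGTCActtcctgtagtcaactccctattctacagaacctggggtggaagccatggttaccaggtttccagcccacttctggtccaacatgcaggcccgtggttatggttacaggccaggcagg
Lpin2: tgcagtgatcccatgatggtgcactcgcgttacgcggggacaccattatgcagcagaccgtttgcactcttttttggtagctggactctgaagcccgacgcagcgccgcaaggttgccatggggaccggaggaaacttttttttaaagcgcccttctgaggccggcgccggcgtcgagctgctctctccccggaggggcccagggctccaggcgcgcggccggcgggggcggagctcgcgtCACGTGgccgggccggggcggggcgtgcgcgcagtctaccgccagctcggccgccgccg
The Lpin1 window held 1 AGGTCA, beginning 74 bases before the start, and 0 CACGTG. The Lpin2 window held 1 CACGTG, beginning 9 bases before the start, and 0 AGGTCA.

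Lpin2 was lower in all 4 Pcyt2+/- livers than in both wild type livers, at a mean of 4.58 in the low band. That mean was under the 4.6 required when array medians were subtracted on the linear scale, so Lpin2 was not tested in that setting. It had log2 values of 4.483, 4.572, 4.574 and 4.521 in Pcyt2+/- replicates 1 to 4, against 4.627 and 4.682 in wild type replicates 3 and 4. The groups did not overlap, and Pcyt2+/- replicate 1 was the lowest. The means were 4.54 ± 0.044 in Pcyt2+/- livers (SD, n = 4) and 4.65 ± 0.039 in wild type livers (SD, n = 2), so that they differed by -0.12 (SE 0.030, 95% interval -0.19 to -0.046). It had the smallest adjusted p of the 10 genes by limma, 0.662. An exact permutation test (two-sided, 15 ways to assign 2 of the 6 arrays) gave p = 0.0667, and no design of 4 against 2 can give a smaller value. With any 1 array left out the difference stayed between -0.144 and -0.089.

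Lpin1 had the largest difference of the 10 genes, and it came from 1 wild type array. It had 4.441, 4.487, 4.478 and 4.450 in Pcyt2+/- replicates 1 to 4, against 4.476 and 5.021 in wild type replicates 3 and 4. Wild type replicate 3 lay within the Pcyt2+/- range, while wild type replicate 4 stood 0.533 above every other array. No other of the 18028 genes with a mean at or below 5 had a single array as far above the rest. The difference of -0.28 (95% interval -0.59 to 0.022, limma adjusted p = 0.936) shrank to -0.012 without wild type replicate 4. When wild type replicate 3 was dropped instead it was -0.56 and passed limma over all genes (adjusted p = 0.00251). That fit sets wild type replicate 4 alone against the 4 Pcyt2+/- arrays and assumes that it varies as they do.

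The last acyl chain is added by the diacylglycerol acyltransferases Dgat1 and Dgat2, which belong to unrelated protein families, while Mogat1, of the Dgat2 family, makes diacylglycerol from monoacylglycerol. Dgat2 had log2 values of 6.197, 6.264, 6.233 and 6.226 in Pcyt2+/- replicates 1 to 4, against 6.589 and 6.327 in wild type replicates 3 and 4. The 4 Pcyt2+/- arrays spanned 0.066, all below both wild type arrays, which lay 0.262 apart. The means were 6.23 ± 0.027 in Pcyt2+/- livers (SD, n = 4) and 6.46 ± 0.19 in wild type livers (SD, n = 2). The difference of -0.23, a 1.17-fold higher signal in wild type livers, was estimated with an SE of 0.064 (95% interval -0.38 to -0.076, limma adjusted p = 0.758, exact permutation p = 0.0667). Its size depended on the wild type array kept: with replicate 3 alone it was -0.36 (adjusted p = 0.0925), and with replicate 4 alone -0.097 (adjusted p = 0.525). With each array's median subtracted on the linear scale it was -0.31.

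Dgat1 and Mogat1 lay in the low band, at percentiles 66.1 and 19.1 of gene means, and showed small differences. Dgat1 had 4.502, 4.485, 4.485 and 4.479 in Pcyt2+/- replicates 1 to 4, against 4.478 and 4.479 in wild type replicates 3 and 4, a difference of 0.0093 with a 95% interval of -0.016 to 0.035. Mogat1 had 4.285, 4.291, 4.291 and 4.313 in Pcyt2+/- replicates 1 to 4, against 4.298 and 4.250 in wild type replicates 3 and 4. Its groups overlapped, and the difference of 0.021 (95% interval -0.017 to 0.059) turned to -0.0027 without wild type replicate 4. Neither gene passed limma (adjusted p = 0.978 for Dgat1 and 0.956 for Mogat1). Mogat1, with a mean of 4.29, was below the array median of 4.40, and no detection call was used.

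The droplet surface genes were Plin2, the perilipin that coats droplets in hepatocytes and is known as a PPAR target, Plin5, a perilipin that tethers droplets to mitochondria, and Cidec, which drives droplet fusion. The Plin2 promoter window is shown because Plin2 is the brightest of the 3 and its window held both motifs. It is chr4:86670010-86670309 on the minus strand of GRCm38.p6, from RefSeq, with the same marks.
Plin2: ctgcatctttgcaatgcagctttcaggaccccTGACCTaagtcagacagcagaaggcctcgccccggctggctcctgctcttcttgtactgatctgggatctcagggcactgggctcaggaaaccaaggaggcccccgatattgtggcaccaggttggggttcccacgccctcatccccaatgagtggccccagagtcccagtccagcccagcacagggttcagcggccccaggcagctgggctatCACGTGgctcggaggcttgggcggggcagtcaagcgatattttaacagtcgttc
AGGTCA stood on the opposite strand, beginning 218 bases before the start, and CACGTG began 4 bases before it. RefSeq windows were matched for 8 of the 10 genes, 13 windows in all, Dgat1 and Dgat2 not among them. Of the 13 windows 5 held AGGTCA, from 4 genes (Gpam, Lpin1, Plin2 and Plin5), and 2 held CACGTG, from 2 genes (Lpin2 and Plin2). Of all 32851 windows of this length 16.3% held AGGTCA and 7.15% held CACGTG, each on either strand. The exact string AGGTCANAGGTCA, a strict spelling of the PPAR element that overlaps the half-site, was found in 0 of the 13 windows. Only 0.0396% of all windows held it, so a count of 0 in 13 says nothing about these genes. A match is a string of letters and no measurement of binding, and the motifs were picked after the windows had been read.

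Plin2 had a lower mean in Pcyt2+/- livers, with groups that overlapped. On the log2 scale it had 5.886, 5.838, 5.595 and 5.781 in Pcyt2+/- replicates 1 to 4, against 5.843 and 6.046 in wild type replicates 3 and 4. Replicate 1 lay between both wild type arrays, and replicate 3 was the lowest. The means were 5.77 ± 0.13 in Pcyt2+/- livers (SD, n = 4) and 5.94 ± 0.14 in wild type livers (SD, n = 2), a difference of -0.17 with a 95% interval of -0.38 to 0.039 (limma adjusted p = 0.945). It was -0.068 without wild type replicate 4, -0.11 without Pcyt2+/- replicate 3 and -0.27 without wild type replicate 3, and passed over all genes in none of these fits.

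Plin5 and Cidec were in the low band. Plin5 had 4.711, 4.730, 4.736 and 4.729 in Pcyt2+/- replicates 1 to 4, against 4.752 and 4.729 in wild type replicates 3 and 4. Its groups overlapped and the difference was -0.014 (95% interval -0.043 to 0.015, limma adjusted p = 0.956), and -0.0029 without wild type replicate 3. Cidec had 4.589, 4.585, 4.571 and 4.593 in Pcyt2+/- replicates 1 to 4, against 4.584 and 4.635 in wild type replicates 3 and 4. Its groups overlapped as well, and the difference of -0.025 (95% interval -0.063 to 0.013, limma adjusted p = 0.956) turned to 0.00049 without wild type replicate 4. Adipocytes also carry droplet proteins of these families. Of 8 adipocyte markers 7 were measured, all with means from 4.22 (Adipoq) to 4.50 (Retn). Their summed linear signal ran from 142.9 to 144.4 in Pcyt2+/- livers and from 143.1 to 143.9 in wild type livers. With every marker in the low band around the array median of 4.40, that sum cannot compare adipocyte content between the groups.

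**Figure D2:**
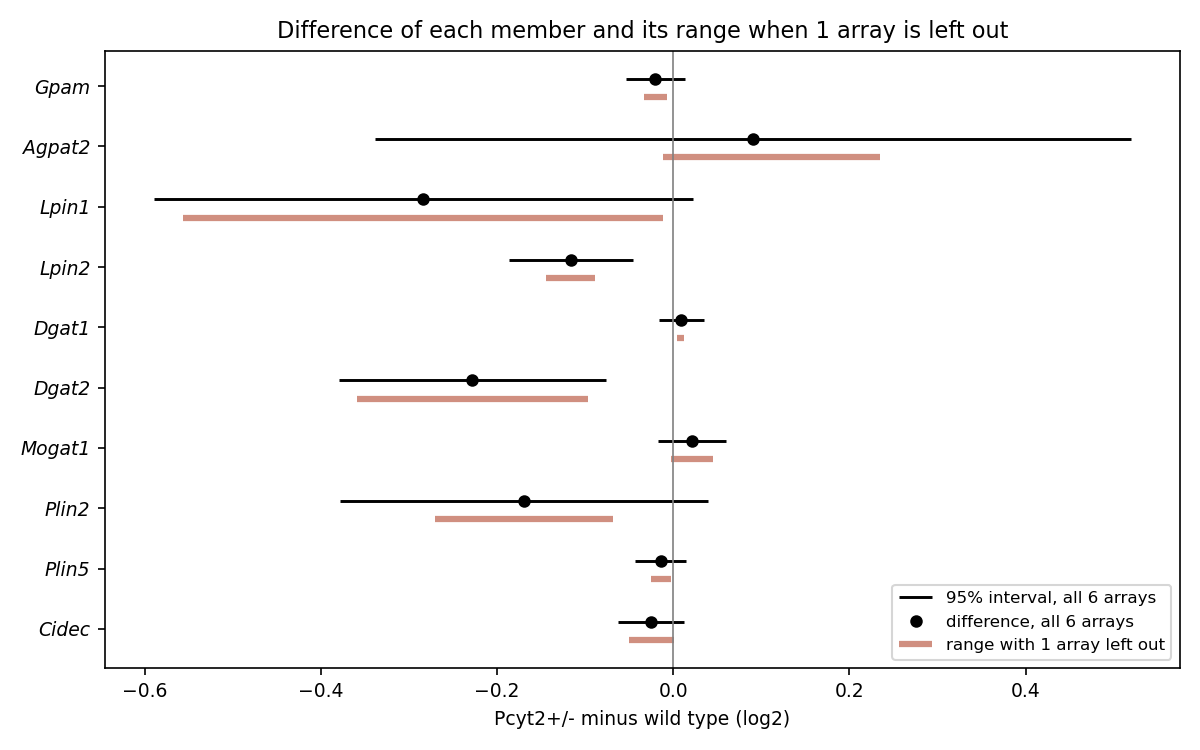
Log2 differences, Pcyt2+/- minus wild type (points), with limma's 95% intervals (black lines, all 6 arrays), and below each the range of the difference when 1 array is left out (red bars). Only the Lpin2 and Dgat2 intervals lie below 0, and the red bar of Lpin1 reaches from -0.556 to -0.012.

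The 10 genes did not rise and fall together across the arrays. Of the 10, 5 had their highest value on the array of wild type replicate 4 and 2 on that of wild type replicate 3. The lowest value fell on Pcyt2+/- replicate 1 for 4 genes and on Pcyt2+/- replicate 3 for another 4. Agpat2 and Plin2 were both highest on replicate 1 and lowest on replicate 3 among the Pcyt2+/- arrays, whereas Dgat2 was lowest on replicate 1.

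For the 3 genes with a mean above 5, the nearest profiles were sought among the other 791 such genes by the root mean square distance of gene-centred log2 values over the 6 arrays. Agpat2 lay nearest to Lgals9, which encodes galectin 9 (0.0323), and to Msrb1, a methionine sulfoxide reductase (0.0853), against 0.226 for its own values around their mean. Dgat2 lay nearest to Fmo1, a flavin monooxygenase (0.0511), and to Cyb5r3, a cytochrome b5 reductase (0.0554), against 0.133. Plin2 lay nearest to Chp1, a calcineurin-like protein (0.0273), and to Atp5j, a subunit of the ATP synthase (0.0325), against 0.134. With 6 arrays and 791 candidates, such neighbours are a description.

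**Figure D3:**
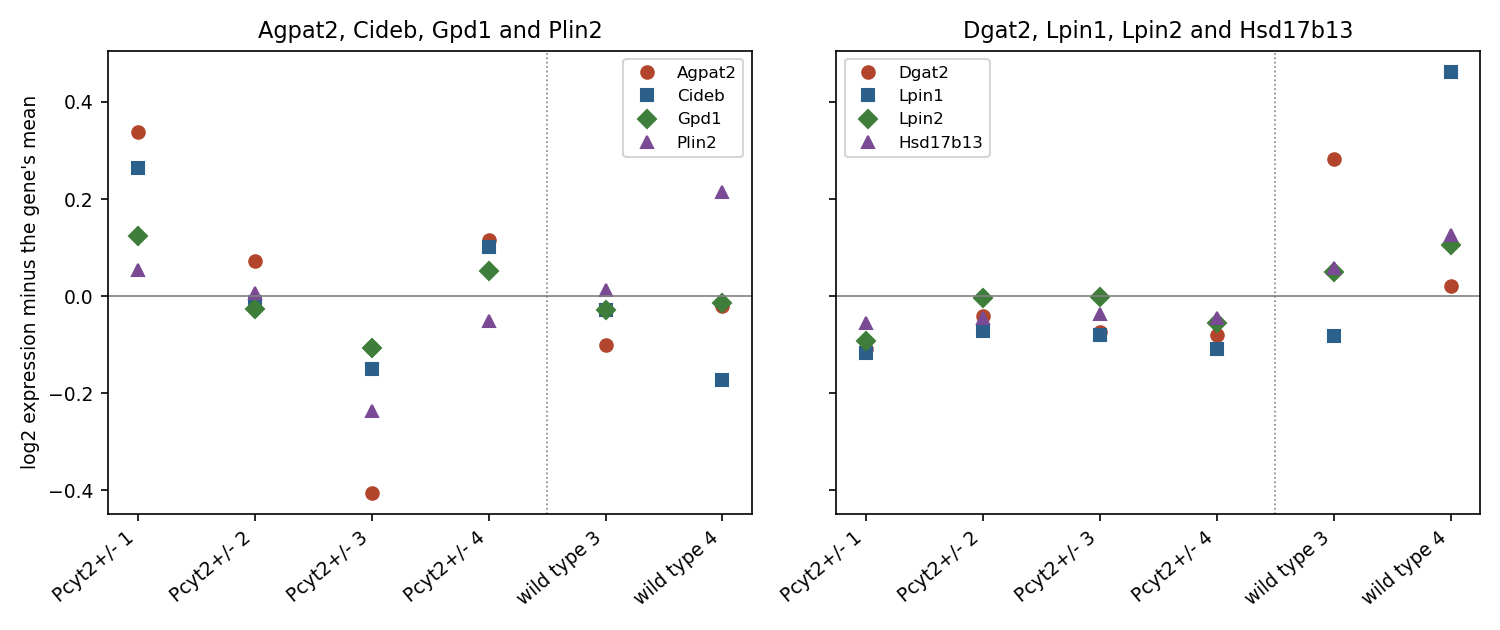
Log2 expression minus each gene's mean over the 6 arrays, with Pcyt2+/- replicates 1 to 4 left of wild type replicates 3 and 4. In the left panel Agpat2, Cideb, Gpd1 and Plin2 are all lowest within Pcyt2+/- on replicate 3 and highest on replicate 1, and in the right panel Dgat2, Lpin2 and Hsd17b13 are lower on every Pcyt2+/- array, while Lpin1 is high on wild type replicate 4 alone; the panels' genes were picked after their values were seen.

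The remaining enzymes and droplet proteins of the pathway gave a similar picture. Of 36 further genes listed, 30 were measured, and limma called 0 lower and 0 higher over all genes. At an unadjusted p under 0.05, 5 were lower and 0 higher, against 3.44% and 1.86% of all genes. Of the 7 with a mean above 5, 2 were lower, where 116 of all 792 genes above 5 were lower and 44 higher. A lower mean was found for 18 of the 30, where 51.9% of all genes had one, with a median difference of -0.0088 that turned to 0.0020 without wild type replicate 3. The count of 5 was 2 without Pcyt2+/- replicate 1 and 3 without Pcyt2+/- replicate 4. Of the 5, Gpat4, the glycerol-3-phosphate acyltransferase of the endoplasmic reticulum, differed by -0.052 (4.64 ± 0.032 in Pcyt2+/- livers, SD, n = 4, and 4.69 ± 0.017 in wild type livers, SD, n = 2). Agpat3, a further acyltransferase of the second step, differed by -0.12 (5.28 ± 0.074 in Pcyt2+/- livers and 5.40 ± 0.074 in wild type livers), and by -0.072 without wild type replicate 4. Plin4, a perilipin, differed by -0.036, and by -0.019 without wild type replicate 4. Mettl7b, a methyltransferase-like protein of droplets and the endoplasmic reticulum, differed by -0.13 (5.14 ± 0.043 in Pcyt2+/- livers and 5.27 ± 0.052 in wild type livers).

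Hsd17b13, a dehydrogenase that resides on liver droplets, had the smallest p of the 30 genes. It had log2 values of 4.614, 4.625, 4.634 and 4.624 in Pcyt2+/- replicates 1 to 4, against 4.729 and 4.795 in wild type replicates 3 and 4. The Pcyt2+/- arrays spanned 0.0195, all below both wild type arrays. The difference of -0.14 had an SE of 0.018 and a limma adjusted p of 0.219. It was -0.76 with each array's median subtracted on the linear scale (limma adjusted p = 0.0671), a setting that enlarges differences of genes near the median. It passed without wild type replicate 3 (-0.17, adjusted p = 0.0495), in a fit that sets 1 wild type array against 4, and it did not pass without wild type replicate 4 (-0.105, adjusted p = 0.254).

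The 4 brightest of the 30 genes did not pass either. Cideb, the CIDE protein of hepatocytes that takes part in VLDL lipidation, had 8.924, 8.648, 8.510 and 8.760 in Pcyt2+/- replicates 1 to 4, against 8.631 and 8.486 in wild type replicates 3 and 4, a difference of 0.15 (limma adjusted p = 0.956) that was 0.080 without wild type replicate 4. Gpd1, which makes glycerol-3-phosphate, differed by 0.032, and by -0.0059 without Pcyt2+/- replicate 1. Hsd17b11, a droplet dehydrogenase, differed by -0.10 (-0.16 without Pcyt2+/- replicate 2) and Aup1, a droplet protein that binds ubiquitin-conjugating enzymes, by -0.069 (-0.036 without wild type replicate 4). Within Pcyt2+/- livers Cideb and Gpd1 had the same order of replicates as Agpat2, replicate 1 highest, then 4, 2 and 3. That order was seen after the values were read, and the share of all genes with it was not counted.

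**Figure D4:**
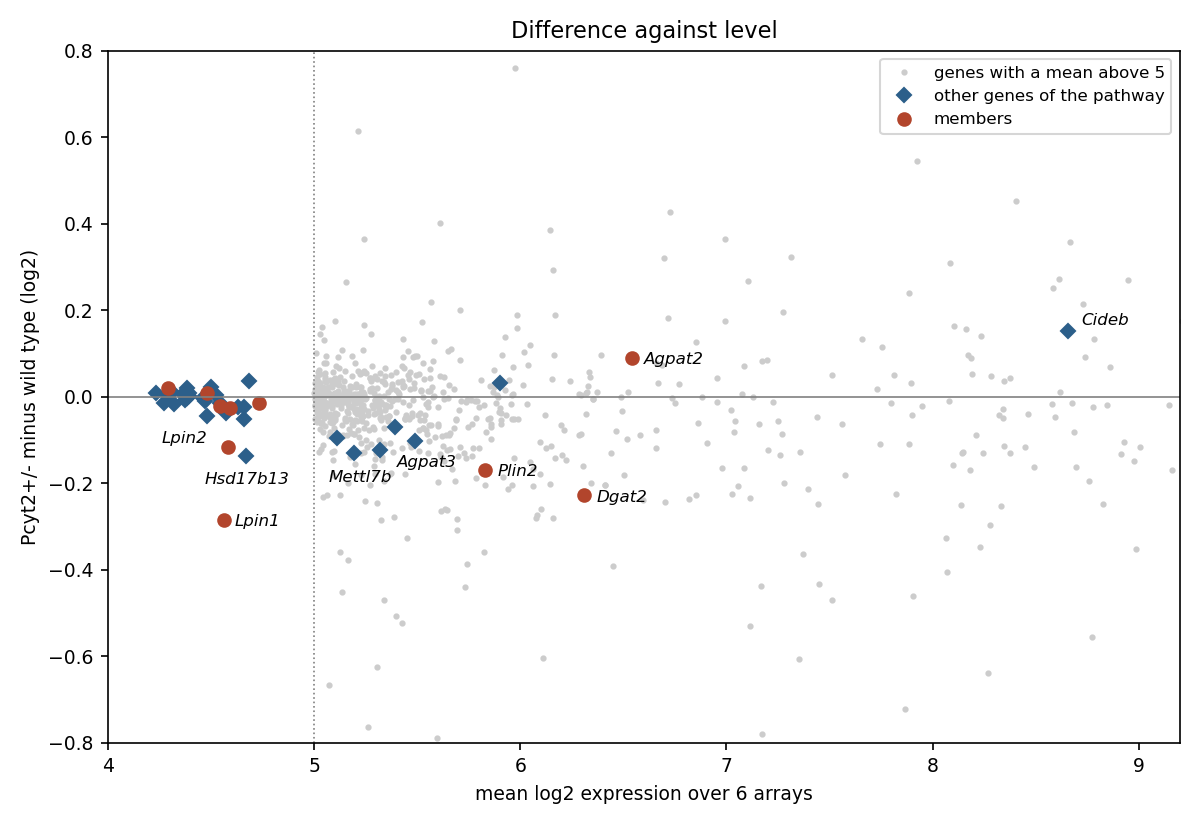
Difference of Pcyt2+/- minus wild type against mean log2 expression for the 10 genes (red circles), the 30 other genes of the pathway (blue diamonds) and the genes with a mean above 5 (grey, 738 of 792 within the axes). Most of both lists sit left of 5 with differences near 0, and Dgat2, Plin2 and Lpin1 lie lowest.

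Transcription factors and coactivators that act on these genes were given by a list of 7. Limma called 0 of them, and an unadjusted p under 0.05 was seen for 1 that was lower (Ppargc1a) and 1 that was higher (Mlxipl). At that p 3.44% of all genes were lower and 1.86% higher, and of the 792 genes with a mean above 5, 116 were lower and 44 higher. Mlxipl, the carbohydrate-responsive factor ChREBP, was higher on all 4 Pcyt2+/- arrays, at 5.207, 5.201, 5.190 and 5.247, than on wild type replicates 3 and 4, at 5.169 and 5.065. Its difference of 0.094 did not pass limma (adjusted p = 0.817) and was 0.042 without wild type replicate 4. Ppargc1a, the coactivator PGC-1alpha, differed by -0.033 at a mean of 4.33, below the array median (adjusted p = 0.796). It has 2 probe sets, and with their mean the difference was -0.011, with an unadjusted p of 0.316 by limma. Xbp1, a factor of the unfolded protein response, differed by 0.22 with overlapping groups (adjusted p = 0.949), and by 0.095 without wild type replicate 3. Ppara, the fatty acid receptor, differed by -0.051 (-0.015 without wild type replicate 4), and Nr1h3, the oxysterol receptor LXRalpha, by -0.014, which turned to 0.00049 without wild type replicate 3. Pparg and Srebf1 had differences of -0.00049 and -0.00024, and both signs turned with quantile normalization.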

How the data were processed

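Liver RNA of 6 mice was hybridised to Affymetrix arrays. The authors deposited log2 values per probe set, for which the submitters' processing notes name RMA; neither its version nor a genome build is given in the sources used here. The table held 28996 probe sets, of which 21218 had 1 gene symbol in the platform annotation, 1881 several and 5897 none here. By gene identifier 21185 of the 21218 matched RefSeq (GRCm38.p6), and 0 symbols changed. The probe set with the highest mean stood for a gene. Differences are Pcyt2+/- minus wild type, tested by limma (version 3.58.1, R 4.3.3; lmFit and eBayes, two-sided, no covariates) and Benjamini-Hochberg adjustment over 18820 genes at a threshold of 0.05. Python 3.11.15 and matplotlib 3.10.9 did the rest. The fit was tested on simulated data.

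Groups came from titles and genotypes. The genes, lists and tests were chosen with earlier results of these data known. Named genes were the 10, Pcyt2, 7 regulators, other pathway genes with an unadjusted p under 0.05 or among the 4 brightest, and the 2 nearest profiles of each bright gene. Subtracting each array's median signal on the linear scale used a floor of 1 and genes with a mean above 4.6. Other settings were dim-gene filters, every row, mean of rows, quantile normalization, median centring, leaving out each array, array weights, other variance models and a block for the replicate number. There is no sequencing depth for arrays; their number limits the precision.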

Additional observations from a re-analysis of the deposited data

Results flagged for a closer look

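Among the named genes, 27 groups of 4 Pcyt2+/- arrays were examined for an array far from the others, and chance marks about 5% of such groups. For Xbp1, Pcyt2+/- replicate 1 stood apart, with a gap of 0.957 of the group's range: it had 5.919, against 5.537 to 5.554 on the other Pcyt2+/- arrays. For Aup1, Pcyt2+/- replicate 4 stood apart, with a gap of 0.844 of the range: it had 5.305, against 5.384 to 5.398 on the other Pcyt2+/- arrays. None of the 10 triglyceride synthesis and droplet genes was marked in this way in the Pcyt2+/- group, and the wild type group, with 2 arrays, was too small for the rule.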

How the results depend on the processing

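Over all results and settings, 462 of 504 values kept their direction and side of the threshold or moved little. That count is no measure of stability, because the main fit called 0 genes and a gene's difference then had only to keep its sign and stay uncalled. Lpin1 counted as kept at -0.0115 without wild type replicate 4, against -0.284 with all 6 arrays. Some settings, such as no moderation, leave every difference as it was. Limma called 3 genes with dim genes left out, 3 with array medians subtracted, 9 with a trended and robust prior, and 0 to 9 with 1 array left out; of the 10 genes 0 to 1 passed with an array left out, and 0 in the other settings. Lower means were seen for 2 of the 3 genes tested without dim genes and 3 of the 4 tested after median subtraction, with medians of -0.169 and -0.17. Over all genes tested in these 2 settings, 62.4% and 61.3% had a lower mean, with medians of -0.0201 and -0.036. With an array left out, 7 to 8 of 10 had a lower mean (median -0.0419 to -0.00928), against 47.2% to 55.2% of all genes (median -0.00244 to 0.00146). Of the other pathway genes, 1 of 7 was lower at an unadjusted p under 0.05 without dim genes, 2 of 12 after median subtraction and 2 of 30 without moderation. All genes gave 69 of 792, 182 of 3248 and 558 of 18820. With a Pcyt2+/- array left out 2 to 5 of the 30 were lower, where all genes gave 553 to 664 of 18820. The median of the other pathway genes was -0.0959 without dim genes, -0.18 after median subtraction and -0.00944 to 0.00195 with an array left out. With quantile normalization Pparg had 0.00171 and Srebf1 0.00254. Fewer genes were tested without dim genes and after median subtraction, and the cause of these shifts was not tested.

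The labels give replicates 3 and 4 in both groups without saying that a number marks a shared litter or day. Deviations of same-numbered arrays from their group means correlated at 0.147 and 0.0725 across genes. With 2 wild type arrays these deviations mirror each other, so pairs with unlike numbers gave -0.147 and -0.0725 by construction. The correlations therefore have no independent baseline and cannot decide the question. A replicate block leaves 1 residual degree of freedom and takes the difference from replicates 3 and 4 alone. It called 2 genes, with a median of -0.0574 over the 10 genes, 8 of them lower, gave -0.256 for Plin2 and -0.174 for Hsd17b11, and turned Agpat2 (-0.0845), Pparg (0.00635), Srebf1 (0.00195) and Gpd1 (-0.00586).

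With 1 array left out, the range was -0.012 to 0.235 for Agpat2, -0.556 to -0.0115 for Lpin1, -0.00269 to 0.0452 for Mogat1, -0.0503 to 0.000488 for Cidec, -0.00977 to 0.00879 for Pparg, -0.00651 to 0.00749 for Srebf1, -0.0288 to 0.000488 for Nr1h3 and -0.00586 to 0.0716 for Gpd1. Other probe sets of the 10 genes could not be tried, since each had 1.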

Other observations

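Lpin1 was not alone in standing high on the array of wild type replicate 4. That array exceeded each other array by at least 0.4 on the log2 scale for 9 genes, against 0 to 4 genes for any other array. Besides Lpin1 they included Cyp8b1, the sterol 12alpha-hydroxylase of bile acid synthesis (a gap of 1.02), Tdo2, which opens tryptophan breakdown (0.788), Hspa8, a constitutive chaperone (0.762), Elovl3, a fatty acid elongase (0.568), Retsat, the retinol saturase (0.553), Cyp7b1, an oxysterol hydroxylase (0.495), Got1, the cytosolic aspartate aminotransferase (0.478), and Hnf4a, a hepatocyte transcription factor (0.408). In the other direction, Pcyt2+/- replicate 3, the lowest Pcyt2+/- array for Agpat2, Plin2, Cideb and Gpd1, was lowest by at least 0.4 for 8 genes, and wild type replicate 3 for 6. These arrays were singled out after their values were seen.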
